A study of Rattus norvegicus with 6 samples.

Results

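The genes described here are the CDK inhibitors Cdkn1a, Cdkn1b, Cdkn1c, Cdkn2a, Cdkn2b and Cdkn2c, the retinoblastoma gene Rb1, and the p53 pathway genes Mdm2 and Ccng1. They were chosen by symbol, and all 9 were found among the 17030 symbols (17557 rows) of a table of mRNA levels in rat prostate tumors, each on a single row. The samples are tumors of 6 Lobund-Wistar rats that were injected under the skin of the flank at 2 months of age with PAIII cells, a serially passaged rat prostate cancer line, and that have an intact immune system. Rats A1, A6 and A12 received digitoxin, a cardiac glycoside, by daily intraperitoneal dosing at 0.03 mg/kg that began on day 10, and rats B5, B9 and B14 received vehicle (n = 3 in each group). Tumors of both groups were collected on day 40. The sequenced animals were not a random draw, since digitoxin-treated rats with low serum IL-6 and CINC-1 were set against vehicle rats in which these markers were high. Each library pools 10 punches, 1 mm across, from viable regions of 1 tumor. Levels are FPKM, a fragment number divided by transcript length and by the mapped reads of the library, so that levels of different genes can be compared per length.

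Cell division is driven by cyclin-dependent kinases (CDKs) and held back by small inhibitor proteins. The CIP/KIP proteins p21 (Cdkn1a), p27 (Cdkn1b) and p57 (Cdkn1c) bind cyclin-CDK complexes broadly, whereas the INK4 proteins p16 (Cdkn2a), p15 (Cdkn2b) and p18 (Cdkn2c) bind CDK4 and CDK6. When these kinases are inhibited, the retinoblastoma protein stays unphosphorylated and restrains E2F factors, and genes of DNA replication stay low. The p53 protein induces Cdkn1a in damaged cells, and it also induces Mdm2, the ligase that degrades p53, and Ccng1, which encodes cyclin G1. Much of this control acts on proteins, which these data do not measure.

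Sequences in the promoters of Cdkn1a and Ccng1 are shown because a search found a p53 motif in both. RefSeq promoters on the GRCr8 build, from 250 bases before to 50 bases after the start site, were matched for 8 of the 9 genes, all but Cdkn1c. They were searched for the 20-base p53 consensus element with at most 1 base off, a motif that reads the same on both strands. Of the 8, only these genes, and not Mdm2, held it within this window, against 0.0717% of all 33469 promoters (24 promoters). Sequence outside the window was not searched. Capitals mark the 10-base part that matches the consensus in full.
Ccng1, chr10:25685099-25685118, minus strand: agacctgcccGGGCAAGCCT
Cdkn1a, chr20:7150731-7150750, plus strand: GAACATGTCTtgacttgttc
These elements start 242 and 201 bases before the start site. A search for 4 forms of the E2F motif (TTTCCCGC, TTTCGCGC, TTTGCCGC and TTTGGCGC, both strands) matched only Rb1 of the 8, against 2.14% of all promoters. These matches describe sequence and no binding was measured.

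The libraries did not group by treatment. Across the 10749 rows whose mean reached 1 FPKM, the log2 levels of A12 (digitoxin) and B14 (vehicle) correlated most closely, with r = 0.985, while r between A6 and A12, both from treated rats, was 0.626. The summed level of 11 alveolar lung markers (of 12 listed) was 50680 FPKM in A1, 83060 in A6, 27330 in B5 and 35860 in B9, but 18.9 in A12 and 26.99 in B14, where 5 and 6 of the 11 were listed at 0, including Sftpb, Sftpa1 and Nkx2-1 in both. The range was thus 18.9 to 83060 in treated and 26.99 to 35860 in vehicle tumors. Sftpc, the surfactant protein C gene, was alone at 19188 to 63514 FPKM in 4 libraries labelled as flank tumors. Whether the punches held lung tissue, or whether libraries were exchanged, was not tested, and either would change what every level below refers to. Among prostate and epithelial markers, Pbsn was listed at 0 throughout and Hoxb13 and Krt5 stayed below 1 FPKM in every library, whereas Krt8, Krt18, Epcam and Cdh1 were at 90.9 FPKM or more. Other marker sums were 183 to 377 FPKM in treated and 62.1 to 781 in vehicle tumors for 6 smooth muscle genes, 124 to 396 and 236 to 282 for 6 macrophage genes, and 24.0 to 79.6 and 46.2 to 98.3 for 7 T cell genes (Cd5 at 0 in 5 libraries), and 2 of 4 mesothelial genes summed to 79.4 to 184 and 132 to 197. Mpeg1 of the macrophage list had a log2 fold change of -1.59 and Cd4 of the T cell list one of -0.91, without overlap between groups (limma, unadjusted p = 0.033 and 0.0431, adjusted p = 0.926 for both). Each list had 6 tested genes, of which 4 were lower and 2 higher with digitoxin. The higher ones were Marco (0.91) and Cd68 (0.19), and Cd2 (0.0794) and Cd3d (0.014). Of all rows, 4.16% had groups that did not overlap and 0.335% an unadjusted p under 0.05. Of 5 RNA quality genes 2 were in the table. Rmrp, a short noncoding RNA, was at 11.8 (A1), 18.6 (A6) and 12.8 (A12) FPKM with digitoxin and 7.52 (B5), 4.42 (B9) and 0 (B14) with vehicle, also without overlap (limma, log2 fold change 2.08, unadjusted p = 0.0414, adjusted p = 0.926). The ribosomal RNA row Rn45s was at 0.632 to 2.64 FPKM and its groups overlapped. The part of RNA quality in the levels below was not tested. The punches are mixtures, and fewer cells of a type cannot be told apart from less RNA per cell. Groups follow the labels throughout, and no gene is altered by design that could check them. The p-values below cover the spread between rats of 1 experiment.

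Ranked by mean level over the 6 libraries, Cdkn1b (87.6 FPKM) was highest, followed by Cdkn1a (63.3), Ccng1 (49.3), Mdm2 (30.3), Cdkn2b (22.5), Rb1 (11.5), Cdkn2c (11.0), Cdkn1c (8.10) and Cdkn2a (1.60). Only the steps from Ccng1 to Mdm2 and from Cdkn1c to Cdkn2a held in 6 of 6 libraries. Cdkn1b was above Cdkn1a in 5 of 6 libraries, and the order of Rb1 and Cdkn2c held in only 3. The remaining neighbours kept their order in 4 of 6 libraries, so these ranks are not separated beyond the spread.

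For none of the 9 genes did the difference between digitoxin and vehicle tumors pass the test against the spread between rats. By limma's moderated test on log2(FPKM + 1), 0 of the 9 passed an adjusted p under 0.05, against 0.0% of all rows tested (0 of 10749), and their adjusted p ran from 0.926 to 0.983. No member reached an unadjusted p under 0.05, which 36 rows, or 0.335%, did. With the replicate number as a block 446 rows (4.15%) did, and Cdkn1c was the only member among them. The mean log2 level was lower with digitoxin for 6 of the 9, near the 64.9% of all rows that were lower (6973 of 10749). This count depends on scaling. With median-of-ratios scaling, which moved the median fold change of all rows from -0.16 to 0.0161 on the log2 scale, 5 members and 5226 rows were lower, and Cdkn1a changed sign. The same scaling took Mdm2 to -0.20, Cdkn1b to -0.34, Cdkn2b to 0.36, Cdkn2c to -0.31, Rb1 to -0.19 and Ccng1 to -0.31 (log2 fold changes, to be read against the values given for each gene). The median of the 9 log2 fold changes was -0.37, -0.19 with that scaling and -0.046 without A6, against -0.16, 0.0161 and -0.0800 for all rows. Ccng1 was the only member whose groups did not overlap, against 4.16% of all rows and 3.26% that were lower without overlap. With median-of-ratios scaling its groups overlapped too, leaving 0 of the 9 beside 4.59% of all rows.

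**Figure D1:**
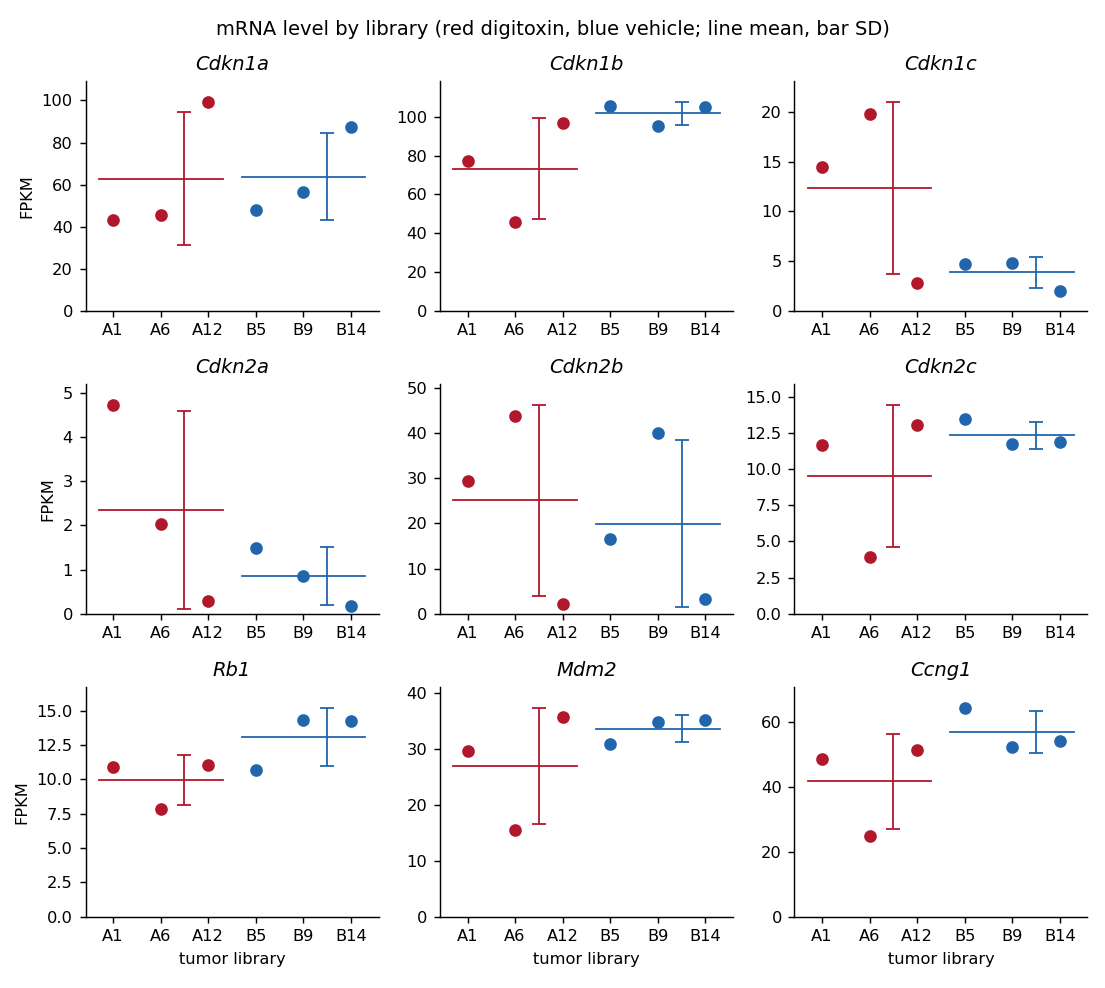
FPKM (linear axis from 0) of the 9 genes in the 6 tumor libraries, 1 point per library, with red for digitoxin, blue for vehicle, lines for group means and bars for SD (n = 3). Cdkn1c, Cdkn2a and Cdkn2b are lowest in A12 and B14, Cdkn1a is highest there, and A6 is lowest for Cdkn1b, Cdkn2c, Rb1, Mdm2 and Ccng1.

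Of the CIP/KIP genes, Cdkn1a on chromosome 20 (8592436 to 8602879 in the table) encodes p21. It was at 43.3 (A1), 45.4 (A6) and 99.3 (A12) FPKM with digitoxin and 47.8 (B5), 56.4 (B9) and 87.3 (B14) with vehicle. A12 and B14 were the highest libraries and lie in opposite groups, so the groups overlapped. The means were 62.7 ± 31.7 FPKM for digitoxin and 63.8 ± 20.7 FPKM for vehicle (SD, n = 3 in each). The log2 fold change was -0.0864 (standard error 0.41, 95% interval -1.07 to 0.90). Its sign turned with median-of-ratios scaling (0.11), without A1 (0.12), without A6 (0.0877) and without B14 (0.16).

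Cdkn1b encodes p27, which restrains CDK2 and is held in check by the SCF ligase with Skp2 and Cks1b. It lies on chromosome 4 (232962326 to 232967128) and was at 77.3 (A1), 45.6 (A6) and 97.0 (A12) FPKM with digitoxin and 105 (B5), 95.03 (B9) and 105 (B14) with vehicle. The vehicle tumors were within a narrow band, and A12 was inside it while A1 and A6 were lower. The means were 73.3 ± 25.9 against 102 ± 5.87 FPKM (SD, n = 3 in each). The log2 fold change of -0.53 (standard error 0.31, 95% interval -1.28 to 0.21) had the smallest unadjusted p of the 9 genes, and its adjusted p from limma was 0.926. Without A6 it was -0.23, and without A12 it was -0.76 (limma, unadjusted p = 0.0345, adjusted p = 0.252), a fit in which 19.7% of all rows were under 0.05.

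Cdkn1c encodes p57, an imprinted growth restraint active in development. It is on chromosome 1 (223521097 to 223523972) and was at 14.4 FPKM in A1 and 19.8 in A6 but at 2.80 in A12, against 4.74 in B5, 4.81 in B9 and 2.002 in B14. A1 and A6 exceeded every vehicle tumor, as they did the other 4 libraries in 15.4% of all rows (24.4% with median-of-ratios scaling), and A12 was inside the vehicle range. The means were 12.4 ± 8.69 and 3.85 ± 1.60 FPKM (SD, n = 3 in each). Its log2 fold change of 1.203 was the largest of the 9, with a standard error of 0.71 and a 95% interval from -0.51 to 2.91. Without A12 it was 1.95, at an unadjusted limma p of 0.00436 and an adjusted p of 0.252, and without A6 it was 0.72. In the fit without A12, 19.7% of all rows had an unadjusted p under 0.05, and 4.06% of all rows did so in the higher direction. With A12 and B14 both left out the log2 fold change was 1.63 (limma, unadjusted p = 0.00495, adjusted p = 0.392), beside 11.0% of all rows under 0.05 and 3.87% in the higher direction. The replicate block gave an unadjusted p of 0.024 and an adjusted p of 0.638, again by limma, with 1.32% of all rows higher and under 0.05. Summed over the 9 endothelial markers, the level had the same order of libraries at the top. The sums were 797 FPKM in A1 and 1633 in A6 against 641 in B9, 380 in B5, 111 in B14 and 93.2 in A12. Cldn5 alone was at 767 FPKM in A6. Of the 9 markers, 8 were highest in A6, but Cdh5 was highest in B9. Kdr, Tie1, Vwf and Cdh5 were higher in B9 than in A1. The alveolar sum was also highest in A6 and A1, although 4 of the 11 markers were highest in B9. With the mean alveolar level as a covariate the log2 fold change of Cdkn1c was 1.14 (limma, unadjusted p = 0.0141, adjusted p = 0.616). In that fit 375 of 10749 rows were under 0.05, against 36 without the covariate. The part of endothelial cells in the Cdkn1c level was not tested.

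**Figure D2:**
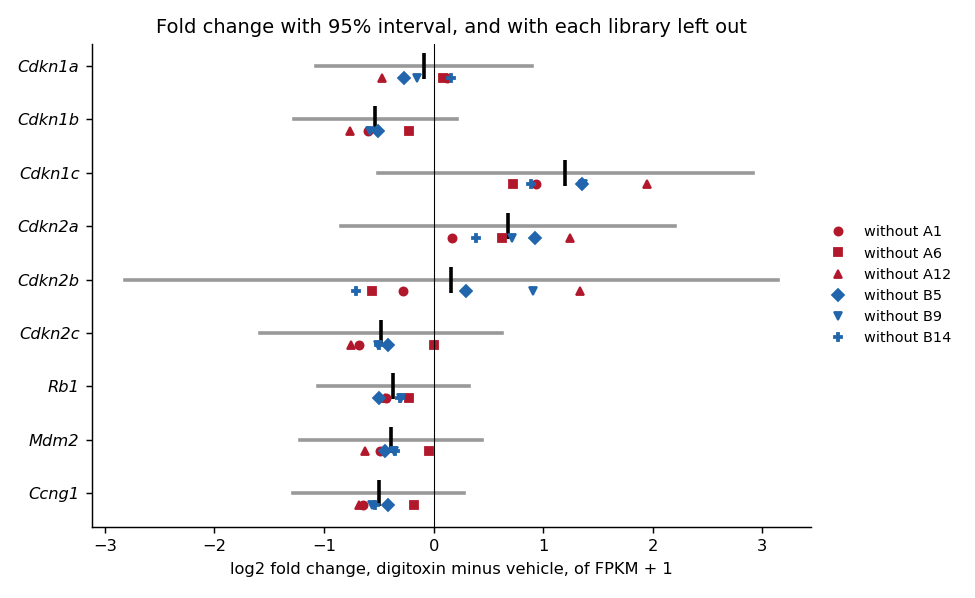
Log2 fold change of FPKM + 1, digitoxin minus vehicle (horizontal axis), for each gene, with black ticks for estimates from 6 libraries, grey lines for 95% intervals, and symbols for estimates with 1 library left out. All 9 intervals include 0, and the estimates for Cdkn2b run from -0.71 without B14 to 1.33 without A12.

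Among the INK4 genes, Cdkn2a was the least abundant member. It encodes p16 and, from another reading frame, the Mdm2 inhibitor ARF, and its row does not separate them. It was at 4.73 (A1), 2.04 (A6) and 0.284 (A12) FPKM with digitoxin and 1.497 (B5), 0.851 (B9) and 0.183 (B14) with vehicle. A12 and B14 were the lowest libraries and A1 was the highest. The means were 2.35 ± 2.24 and 0.844 ± 0.657 FPKM (SD, n = 3 in each). Its log2 fold change was 0.68 (standard error 0.63, 95% interval -0.85 to 2.20), which the added 1 FPKM holds down, since it was 1.07 with 0.1 added. The log2 ratio of the group means, which has no added value and also averages before the log is taken, was 1.48. With 1 FPKM added, the log2 fold change was 0.16 without A1 and 1.24 without A12 (limma, unadjusted p = 0.0482, adjusted p = 0.252 in the latter), where 4.06% of all rows were higher at an unadjusted p under 0.05. The depth behind FPKM this low is unknown. The span given for Cdkn2a on chromosome 5, 111556969 to 111801220, also holds Mtap, which was at 3.01 to 13.2 FPKM, and the counting is not stated to use strand.

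Cdkn2b encodes p15, an inhibitor induced by TGF-beta, and lies next to Cdkn2a on chromosome 5 (111820711 to 111826334). It was at 29.3 (A1), 43.8 (A6) and 2.21 (A12) FPKM with digitoxin and 16.5 (B5), 39.97 (B9) and 3.36 (B14) with vehicle. The 4 libraries with high alveolar sums were at 16.5 FPKM or more and the 2 with the lowest sums at 3.36 or less, whatever the treatment. The highest library exceeded the lowest 19.8-fold, a spread second only to that of Cdkn2a (25.8-fold). Its log2 fold change was 0.16 with a standard error of 1.23 and a 95% interval from -2.82 to 3.14. It was 0.33 as the log2 ratio of group means and 0.46 without A12 and B14, and it reversed to -0.28 without A1, -0.57 without A6 and -0.71 without B14. Cdkn1c, Cdkn2a and Cdkn2b were all below the other 4 libraries in both A12 and B14, as were 29.3% of all rows. With the mean alveolar level as a covariate the log2 fold change of Cdkn2b was 0.0328 and that of Cdkn2a 0.62 (limma, adjusted p = 0.968 and 0.616). The part of endothelial transcripts was not tested.

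Cdkn2c encodes p18, whose gene is itself switched on in dividing cells. It is on chromosome 5 from 133181576 to 133186731, apart from the other INK4 genes, and was at 11.7 (A1), 3.95 (A6) and 13.1 (A12) FPKM with digitoxin and 13.5 (B5), 11.8 (B9) and 11.9 (B14) with vehicle. A6 stood alone at the low end and the other 5 tumors were within a narrow range. The means were 9.55 ± 4.90 and 12.4 ± 0.94 FPKM (SD, n = 3 in each). The log2 fold change of -0.48 (standard error 0.46, 95% interval -1.58 to 0.63) was -0.0008 without A6 and -0.75 without A12. Cdkn2d, which encodes the remaining INK4 protein p19, was not analysed here.

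The inhibitor genes differed less in their sum than in their makeup. Summed over the 6 CDK inhibitors, the level was at 181 (A1), 161 (A6) and 215 (A12) FPKM with digitoxin and 189 (B5), 209 (B9) and 210 (B14) with vehicle. Cdkn1a and Cdkn1b made up 46.3% and 45.2% of the sum in A12 and 41.6% and 50.1% in B14. In A6 they held 28.3% and 28.4%, with 27.3% from Cdkn2b and 12.3% from Cdkn1c. In B9, a vehicle tumor, Cdkn2b still held 19.1%, against 1.03% in A12 and 1.60% in B14. The ratio of INK4 mRNA to that of their targets, Cdk4 plus Cdk6, was 0.198 (A1), 0.384 (A6) and 0.0423 (A12), and 0.103 (B5), 0.199 (B9) and 0.0508 (B14). This ratio is free of scaling between libraries, and its groups overlapped (exact permutation test, two-sided, p = 0.8).

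**Figure D3:**
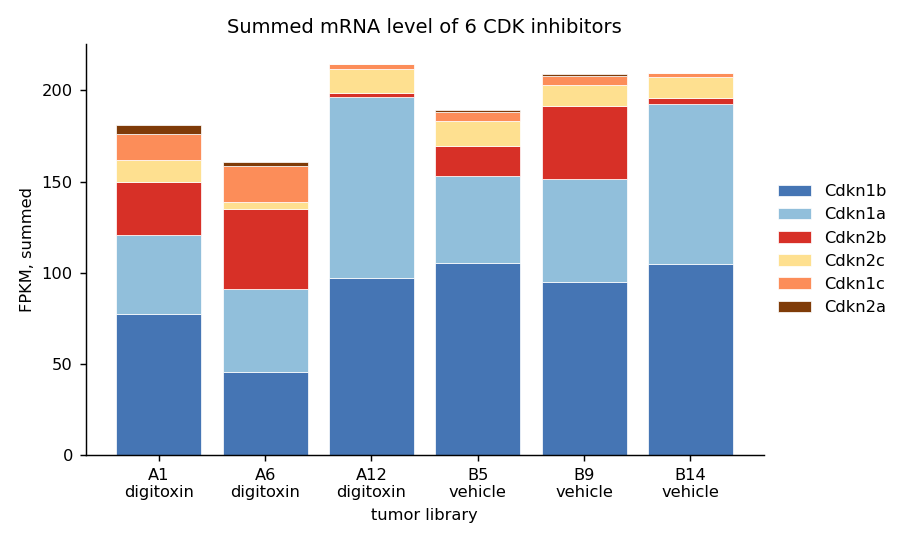
Summed FPKM (vertical axis from 0) of the 6 CDK inhibitor mRNAs in each tumor library, with 1 colour per gene. The sums run from 161 in A6 to 215 in A12, and the share of Cdkn2b from 1.03% in A12 to 27.3% in A6.

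Rb1, whose protein is the main brake on E2F, was at 10.9 (A1), 7.84 (A6) and 11.0 (A12) FPKM with digitoxin and 10.7 (B5), 14.3 (B9) and 14.3 (B14) with vehicle. A1 and A12 were above B5, so the groups overlapped, and A6 was again the lowest. Its means were 9.93 ± 1.81 and 13.1 ± 2.10 FPKM (SD, n = 3 in each), and the log2 fold change was -0.37 (standard error 0.29, 95% interval -1.06 to 0.32). It was -0.22 without A6 and -0.19 with median-of-ratios scaling. Rb1 varied least among the 9, with 1.82-fold between the extremes. Its span on chromosome 15, 58804730 to 59000825, also holds Lpar6 and nearly all of Itm2b, which were at 5.12 to 23.5 and 409 to 716 FPKM, and reads that they share cannot be told apart.

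The partners of Rb1 were read from lists of general knowledge. Of the 12 listed pocket protein and E2F genes, 8 were tested, and 0 passed an adjusted or unadjusted p under 0.05 in limma's test. All 8 were lower on average with digitoxin (7 with median-of-ratios scaling and 6 without A6), beside 6973 of 10749 rows in all and 7124 without A6, with a median log2 fold change of -0.40 against -0.16 for all rows. That median was -0.11 without A6, -0.20 with median-of-ratios scaling and -0.70 without A12, against -0.0800, 0.0161 and -0.23 for all rows. Rbl1, the Rb relative p107, was at 2.73 (A1), 0.0954 (A6) and 14.6 (A12) FPKM with digitoxin and 4.39 (B5), 6.93 (B9) and 18.7 (B14) with vehicle, a log2 difference of -1.24 with a standard error of 1.03. E2f7, a repressor of the E2F family, had -0.66 (0.71). The values closest to 0 were those of the DNA-binding partner Tfdp2, -0.0928 (0.40), and of the p130 gene Rbl2, -0.23 (0.35).

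Of the 10 CDK and G1 cyclin genes, all were tested and 0 passed either threshold. The mean was lower for 8, beside 64.9% of all rows, with a median log2 fold change of -0.67 against -0.16 for all rows. Without A6, 6 were lower and the median was -0.0965, against -0.0800 for all rows. Ccna2, cyclin A2 of S phase, had a difference of -1.42 (standard error 1.06) and Cdk6 -0.91 (0.71). Ccna1, a cyclin known from germ cells, had 1.11 (0.73). It was at 3.93 FPKM in A1 and 4.70 in A6, at 0.742 in B5 and 0.621 in B9, and listed at 0 in A12 and B14. Ccnd3, cyclin D3, had 0.46 (0.58). Ccnd1, the major partner of Cdk4 in carcinoma, was added after its values were seen. It was at 134 (A1), 48.9 (A6) and 310 (A12) FPKM with digitoxin and 200 (B5), 170 (B9) and 326 (B14) with vehicle, so A12 and B14 were the highest.

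For the 7 genes of p27 turnover, 6 had a lower mean, beside 64.9% of all rows, and 0 passed either threshold. Their median log2 fold change was -0.79, against -0.16 for all rows. It was -0.14 without A6, -0.46 without B14 and -1.37 without A12, against -0.0800, -0.23 and -0.23 for all rows. The largest differences were those of Cks1b, a cofactor of Skp2, at -1.26 (standard error 0.89), and of the scaffold Cul1, at -0.997 (0.63). Cks1b was at 2.53 FPKM in A6 and between 20.5 and 42.7 FPKM elsewhere. The scaffold partner Skp1 had -0.33 (0.25), and the forkhead gene Foxo4 0.0237 (0.37). Of the 7 genes, 6 were lowest in A6, as were Cdkn1b and 50.4% of all rows.

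Mdm2, on chromosome 7 from 60719028 to 60743291, was at 29.6 (A1), 15.5 (A6) and 35.7 (A12) FPKM with digitoxin and 30.9 (B5), 34.9 (B9) and 35.1 (B14) with vehicle. A6 was less than any other library, and the remaining 5 were between 29.6 and 35.7 FPKM with A12 the highest of all. The means were 26.9 ± 10.4 and 33.7 ± 2.35 FPKM (SD, n = 3 in each). The log2 fold change was -0.39 (standard error 0.34, 95% interval -1.22 to 0.44) and it was -0.046 without A6 and -0.62 without A12.

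Ccng1, on chromosome 10 from 25754108 to 25760482, encodes cyclin G1, which recruits a phosphatase to Mdm2. It was at 48.6 (A1), 24.9 (A6) and 51.4 (A12) FPKM with digitoxin and 64.2 (B5), 52.3 (B9) and 54.2 (B14) with vehicle. Every treated tumor was below every vehicle tumor, but A12 and B9 were close, and with median-of-ratios scaling B9 (44.4) was below A1 (48.2) and A12 (48.6). The means were 41.7 ± 14.6 and 56.9 ± 6.42 FPKM (SD, n = 3 in each). Its exact permutation p of 0.1 (two-sided) is the smallest that 3 against 3 allows. The log2 fold change was -0.50 (standard error 0.32, 95% interval -1.29 to 0.28), with an adjusted p of 0.926 from limma, and it was -0.18 without A6. Relative to Mdm2 the level of Ccng1 did not separate the groups, at 1.44 to 1.64 in treated and 1.5 to 2.07 in vehicle tumors (exact permutation test, two-sided, p = 0.8).

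Of 41 listed p53 targets, 35 were in the table and 33 were tested, of which 20 had a lower and 13 a higher mean with digitoxin (18 and 15 with median-of-ratios scaling), beside 64.9% of all rows lower. Their median log2 fold change was -0.20, -0.11 without A6 and -0.0342 with median-of-ratios scaling, against -0.16, -0.0800 and 0.0161 for all rows. Of these targets, 0 passed an adjusted or unadjusted p under 0.05 in limma's test. Tp53inp1, which encodes a stress-induced p53 cofactor, was the only target of the 33 whose groups did not overlap, near the 4.16% of all rows, and it was named after its values were seen. It was at 4.38 (A1), 1.97 (A6) and 5.92 (A12) FPKM with digitoxin and 7.75 (B5), 12.4 (B9) and 6.59 (B14) with vehicle. The difference was -1.003 on the log2 scale, with a standard error of 0.44 (limma, unadjusted p = 0.0613, adjusted p = 0.926). The largest negative values were those of the matrix gene Thbs1, -1.44 (1.24), and of the proapoptotic Pmaip1 (Noxa), -1.20 (0.85). The largest positive values were those of the glutaminase Gls2, 0.33 (0.48), and of Sertad1, 0.30 (0.29). Thbs1 was at 113 FPKM in A12 and 118 in B14 but at 23.2 in A1, 2.66 in A6, 34.5 in B5 and 46.8 in B9. The apoptosis gene Bax, also named after its values were seen, was at 98.5 to 123 FPKM in all 6 tumors.

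Among 11 tested p53 regulators of 16 listed, 8 had a lower and 3 a higher mean, 0 passed either threshold, and the median log2 fold change was -0.51, against 64.9% of all rows lower and a median of -0.16. The median was -0.19 without A6, -0.23 without B14 and -0.83 without A12, against -0.0800, -0.23 and -0.23 for all rows. The DNA damage kinases Atm and Chek1 had -1.05 (standard error 0.65) and -1.04 (0.77). The ubiquitin ligase gene Rfwd2 (Cop1) had 0.24 (0.68) and the acetyltransferase gene Kat5 0.10 (0.22). Atm was at 0.110 FPKM in A6 and at 1.78 FPKM or more elsewhere.

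The level of the genes that the inhibitors ultimately restrain was lowest in 1 treated tumor. All 22 listed E2F targets were tested, and each was lower in A6 than in any other library, whereas A6 was lowest in 50.4% of all rows. Their median was 5.67 FPKM in A6, with 31.5 (A1) and 71.6 (A12) in the other treated tumors and 40.1 (B5), 51.3 (B9) and 64.4 (B14) with vehicle. The median log2 fold change was -0.95 with all 22 lower, beside 64.9% of all rows, and 0 passed an adjusted or unadjusted p under 0.05 in limma's test. Without A6 it was -0.0995 with 16 of 22 lower, beside -0.0800 and 7124 of 10749 lower for all rows. Without A12 it was -1.64, against -0.23 for all rows. Top2a, the topoisomerase of dividing cells, had -1.90 (standard error 1.36) and the mitotic cyclin Ccnb1 -1.48 (1.14), whereas the smallest differences were those of Aurkb, -0.22 (0.42), and the thymidylate synthase Tyms, -0.43 (0.29). A6 also had the highest alveolar sum, and the epithelial keratin Krt8 was at 398 FPKM there against 1086 to 2095 elsewhere and Krt18 at 106 against 134 to 241, while Epcam (213) was lower in A1 and Cdh1 (92.7) in A12. In A6, 5 of the 9 members (Mdm2, Cdkn1b, Cdkn2c, Rb1 and Ccng1) were lowest, close to the 50.4% of all rows. The same 5 members and all 22 E2F targets were lowest in A6 with median-of-ratios scaling, beside 38.5% of all rows. The part of cell makeup in these low values was not tested.

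Ratios to Pcna, the replication clamp and an E2F target, set the inhibitors against replication within a library, free of scaling. The Cdkn2c to Pcna ratio stayed between 0.0364 and 0.0505 in all 6 tumors, although Cdkn2c itself differed 3.41-fold between its extremes. Pcna was at 231 (A1), 84.9 (A6) and 359 (A12) FPKM with digitoxin and 346 (B5), 279 (B9) and 321 (B14) with vehicle. The Cdkn1a to Pcna ratio was 0.188 (A1), 0.535 (A6) and 0.277 (A12), against 0.138 (B5), 0.202 (B9) and 0.272 (B14). A6 was thus the tumor with the most Cdkn1a per Pcna, and the groups overlapped (exact permutation test, two-sided, p = 0.4). This test ignores the replicate numbers of the labels, and the ratio was higher with digitoxin in 3 of 3 pairs that share one (A1 with B5, A6 with B9 and A12 with B14), a number of pairs at which an exact paired test cannot give a p below 0.25. A12 and B14 were close, at 0.277 and 0.272. Among the other ratios given here, the count was 2 of 3 for Cdkn2c to Pcna and for INK4 to Cdk4 plus Cdk6, and 1 of 3 for Ccng1 to Mdm2. The ratios to Pcna were chosen after the values were seen.

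**Figure D4:**
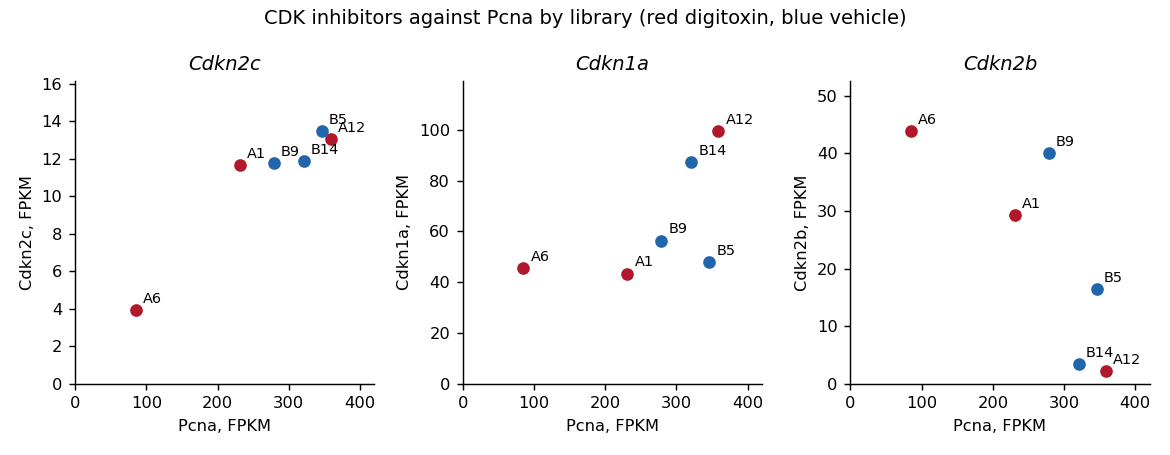
FPKM of Cdkn2c, Cdkn1a and Cdkn2b (vertical axes from 0) against FPKM of Pcna (horizontal axis), 1 point per tumor library, red for digitoxin and blue for vehicle. Cdkn2c keeps a ratio of 0.0364 to 0.0505 to Pcna, Cdkn1a is highest in A12 and B14, and Cdkn2b is lowest in these libraries.

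Each member was also matched with the 2 rows most like it by Pearson's r of log2(FPKM + 1) over the 6 libraries, as a description. Among 10749 rows and over only 6 points, each of these r was 0.986 or more. Troap, a spindle-associated gene, and Golga7 were closest to Mdm2 (r = 0.9995 and 0.9989). Spg7 and the telomerase RNA Terc were closest to Cdkn1a (0.9957 and 0.9941), and Fbxl16 and Bcap29 to Cdkn1b (0.9980 and 0.9975). Syt5 and Hyal2 were closest to Cdkn1c (0.9982 and 0.9978). The airway secretory gene Scgb3a1 and the lysosomal gene Plbd2 were closest to Cdkn2a (0.9962 and 0.9877), and Scgb3a1 was at 145 FPKM in A1, 14.2 in A6, 7.62 in B5 and 3.67 in B9 and listed at 0 in A12 and B14. For Cdkn2b they were Gimap9, of the GIMAP family known from lymphocytes, and Ppap2b (0.9994 and 0.9993), for Cdkn2c Wnt10a and RGD1562618 (0.9996 and 0.9975), for Rb1 Cdon and Snx29 (0.9952 and 0.9863), and for Ccng1 Hmgb1 and Foxq1 (0.9972 and 0.9965).

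**Figure D5:**
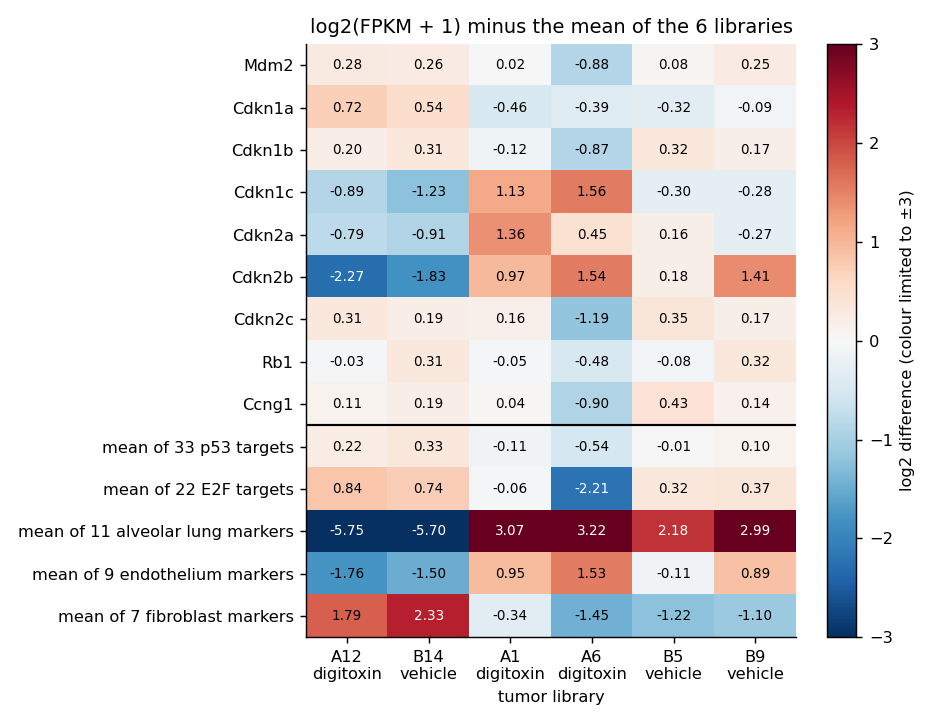
Log2(FPKM + 1) minus the mean of the 6 libraries (colour, limited to 3 in either direction, and printed value) for the 9 genes and for the mean of 5 gene lists, with columns as tumor libraries. Cdkn1c, Cdkn2a and Cdkn2b are below their mean in A12 and B14 together with the alveolar and endothelial markers, Cdkn1a is above it with the fibroblast markers, and the E2F targets reach -2.21 in A6.

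Cdkn1a and Mdm2, 2 of the 9 members, were higher in A12 and B14 than in the other 4 libraries, near the 30.1% of all rows with this order. The 8 fibroblast markers summed to 2893 FPKM in A12 and 4048 in B14 against 225 to 853 FPKM elsewhere, with Col1a2 listed at 0 throughout. The margin was wide for Cdkn1a (87.3 against at most 56.4 FPKM) and narrow for Mdm2 (35.1 against 34.9 FPKM). Cdkn1c, Cdkn2a and Cdkn2b, 3 of the 9, had the opposite order, near the 29.3% of all rows. Within A12 and B14, Cdkn1c (2.80 against 2.002 FPKM) and Cdkn2a (0.284 against 0.183 FPKM) were higher in A12, the treated tumor. For Cdkn2a both levels are below 1 FPKM and of unknown precision. Among the other 4 libraries both genes were higher in A1 and A6 than in B5 and B9. This combined order was chosen after the values were seen. Of all rows, 7.36% had it (13.6% with median-of-ratios scaling), and 20.6% had the opposite order (15.9%), as did Cdkn1b and Ccng1 (only Cdkn1b with that scaling). With median-of-ratios scaling the same members showed each pattern, beside 31.9% of all rows above and 29.4% below. The part of fibroblasts in the Cdkn1a level was not tested.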

How the data were processed

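Messenger RNA of 6 tumors was sequenced by the authors as single reads of 101 bases from TruSeq libraries and processed with Bowtie 2, TopHat 2 and Cufflinks 2. The deposited values are FPKM per tumor, and scaling between tumors is not given in the sources used here. The submitters' notes name hg19, a human build, while the table's loci are on rat chromosomes, so positions are those of the table. Read depth is unknown, and low FPKM have no known precision. All FPKM columns were matched to a sample.

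Rows whose mean reached 1 FPKM (10749) were compared on the log2(FPKM + 1) scale, which understates changes of low genes, with limma 3.58.1 in R 4.3.3 (lmFit, eBayes with a trend, two-sided, Benjamini-Hochberg adjustment over all rows), which replaces Cuffdiff, since that needs reads. Ratios and single genes were compared by exact permutation over the 6 rats. The fit was tested on simulated data. Python 3.11.15, numpy 2.4.6, pandas 2.3.3, scipy 1.17.1 and matplotlib 3.10.9 were used. The members and lists were chosen with earlier results of these data known. From each pathway list the 2 largest differences in each direction are named, and each gene with an unadjusted p under 0.05, of which these lists had 0. Genes named from the marker lists were chosen after their values were seen. Rats with the same replicate number in the labels (A1 and B5, A6 and B9, A12 and B14) deviated together from their group means (r = 0.426, 0.606 and 0.869), as did A1 with B9 (0.644) and A6 with B5 (0.612). No label ties a number to a batch. Alternatives were another pseudocount (0.1), no filter, median-of-ratios scaling, no trend, the replicate number as a block, an alveolar covariate, ratios of group means, and libraries left out. Some genes of the lists are not reported here.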

Additional observations from a re-analysis of the deposited data

How the results depend on the processing

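None of the 9 genes passed an adjusted p under 0.05 in any alternative run. Median-of-ratios scaling reversed Cdkn1a (0.11). With 1 library left out, Cdkn1a ran from -0.47 to 0.16, reversing without A1 (0.12), A6 (0.0877) and B14 (0.16), and Cdkn2b from -0.71 to 1.33, reversing without A1 (-0.28), A6 (-0.57) and B14 (-0.71). Rows at an unadjusted p under 0.05, 36 of all tested, became 133 without a filter, 446 with the replicate block, 375 with the alveolar covariate and 1183 without A12 and B14, and ran from 13 (without A6 or B9) to 2114 (without A12) with 1 library left out. The replicate block changed no call among the members at an adjusted p under 0.05, and Cdkn1c had an unadjusted p of 0.024 with it. Rows whose groups did not overlap, 447 in all, became 6153 without A12 and B14 and ran from 548 to 5479 with 1 library left out, a count that rises with fewer samples by construction. Rows past the adjusted threshold ran from 0 to 2 with 1 library left out. The 2, Mir3561 and Mir3567, were called without B14, and the same 2 when A12 and B14 were both left out, and they were named after their values were seen. With A12 and B14 left out, each group holds 2 libraries. The cause of these shifts was not tested. Read depth is unknown for every gene.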
